A study of Mus musculus with 40 samples.

Results

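Neutrophils and monocytes sorted from colon tumors were compared: 4 libraries of tumor neutrophils (T_CG) and 4 of tumor monocytes (T_CC), taken by their labels as 8 of the 40 libraries of the series. Both groups came from Cdx2CreERT2 - Apc fl/fl mice of a C57Bl6/Sv129 background. The mice had received 1 intraperitoneal injection of tamoxifen (25 mg/kg) at an age of 8 to 10 weeks by the labels. The Cdx2 promoter drives the tamoxifen-dependent Cre recombinase in the colon epithelium, where Cre deletes both copies of Apc, an inhibitor of Wnt signaling, and adenomas form. All cells of both groups were CD45+, EpCAM-, CD11b+ and MHCII- in the sort. Neutrophils were gated as Ly6G+ and Ly6C-low, and monocytes as Ly6G- and Ly6C-high. Other libraries are used for reference only, namely tumor epithelial cells (T_CE) and blood neutrophils (T_PG) and blood monocytes (T_PC) of the same kind of tumor-bearing mice. The labels do not name the animals. The titles give the libraries of a group different numbers, and the study describes its expression values of these sorted cells as measured on individually derived samples, so p-values measure the spread between those samples.

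Counts on genes totaled 13944547 to 17980197 per library in tumor neutrophils and 12076890 to 20229439 in tumor monocytes. Mitochondrially encoded genes took 17% to 37.5% and 18.8% to 31.5% of them, respectively. Between 4668 and 7061 genes reached 1 RPKM (reads scaled to transcript length and library size) in a neutrophil library, and between 6674 and 7204 in a monocyte library. The neutrophil library T_CG 1 stood apart. A list of 20 epithelial marker genes summed to 488 RPKM there, against 269.9, 145 and 23.4 RPKM in T_CG 2 to 4 and a mean of 355 RPKM in tumor epithelial cells. The summed neutrophil markers of T_CG 1 were 2368 RPKM, against 7479.6 to 14290.4 RPKM in the other 3 neutrophil libraries. Counts of genes and values of genes that turn on this library are therefore given with and without it.

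Neutrophils and monocytes are the short-lived phagocytes that blood delivers to inflamed tissue and to tumors. Neutrophils leave the bone marrow nearly fully equipped. They carry granules filled with proteases and antimicrobial proteins, follow CXC chemokines through the receptor Cxcr2, and live under the control of granulocyte colony-stimulating factor. Monocytes are released through the chemokine receptor Ccr2. In tissue they can turn into macrophages or into antigen-presenting cells under the control of the receptor Csf1r. In tumors both cell types have been described as suppressors of T cells, through arginine depletion, adenosine, reactive oxygen species, checkpoint ligands and TGF-beta, and both can release matrix-degrading enzymes. The comparison asks which of these functions the 2 cell types share inside the tumor and which belong to 1 of them at the RNA level.

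The sorted identities were checked with marker genes. Of 20 neutrophil markers, 18 were higher in tumor neutrophils in the edgeR test (called where the adjusted p was under 0.05 and the log2 fold change beyond 1.5 in either direction), where 4.65% of all 15003 genes tested were called higher and 2.80% lower. The list's median log2 fold change was 5.43, against 0.06 over all genes tested. Without T_CG 1, 20 of 20 were called, beside 6.44% of genes called higher and 4.74% lower in that fit. Leaving out any other single library left 15 or more called. The chemokine receptor gene Cxcr2 was at 60.4, 441, 325 and 380.4 RPKM in T_CG 1 to 4 and at 2.65, 0.466, 0.682 and 1.06 RPKM in T_CC 1 to 4. Csf3r, the receptor for granulocyte colony-stimulating factor, was at 51.6, 192, 182 and 201 RPKM in the neutrophil libraries and at 8.37 to 9.46 RPKM in the monocyte libraries. Both genes separated the groups completely, and T_CG 1 was the lowest neutrophil library for each. Their log2 fold changes were 8.64 ± 1.02 (SE, adjusted p = 0.00132) and 4.79 ± 0.60 (adjusted p = 0.00167). Ly6g, which encodes an antigen of the sort gate and was named after its values were seen, was at 1.18 RPKM in T_CG 1 and at 9.65 to 12.6 RPKM in the other neutrophil libraries, against 0.178 to 0.615 RPKM in monocytes. The 2 markers that were not called over all libraries were Trem1, an activating receptor, and Cd177, a neutrophil surface protein. Trem1 was at 22.2, 128, 98.3 and 116 RPKM in T_CG 1 to 4 and at 13.9 to 55.7 RPKM in monocytes (adjusted p = 0.0704, and 0.0103 without T_CG 1). Cd177 was at 2.44, 3.57, 21.7 and 32.7 RPKM against 3.99 to 5.75 RPKM (adjusted p = 0.111, and 0.0184 without T_CG 1), with 2 neutrophil libraries below all monocyte libraries.

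Of 20 monocyte markers, 12 were lower in tumor neutrophils (median log2 fold change -3.73), 13 without T_CG 1, and 10 to 15 over the fits that lacked 1 library. Csf1r, the receptor for macrophage colony-stimulating factor, was at 7.29, 3.99, 14.2 and 16.4 RPKM in T_CG 1 to 4 and at 60.9, 57.0, 72.3 and 94.1 RPKM in T_CC 1 to 4, with no overlap (log2 fold change -2.28 ± 0.45, adjusted p = 0.0125). Fn1, which encodes fibronectin and is abundant in young monocytes, was at 9.45, 0.665, 1.44 and 1.40 RPKM against 113, 78.1, 103 and 136 RPKM (log2 fold change -4.85 ± 0.70, adjusted p = 0.00296), with a mean of 14.8 RPKM in tumor epithelial cells. Ly6c2, which encodes the other antigen of the gates, was low in both groups, at 0.286 to 1.15 RPKM in neutrophils and 2.28 to 5.72 RPKM in monocytes. Its ranges did not overlap, but it was not called (log2 fold change -1.30 ± 0.65, adjusted p = 0.255). Cd14, a co-receptor for lipopolysaccharide, went the other way in the values, with 363, 749, 1166 and 1147 RPKM in neutrophils against 276 to 525 RPKM in monocytes (adjusted p = 0.0508, and 6.2e-04 without T_CG 1). The list for macrophages, into which monocytes can mature, had 17 tested members, of which 9 were lower in neutrophils (median -2.69) and 5 without T_CG 3. The summed list was at 37.9 to 57.2 RPKM in tumor neutrophils, 127 to 234 RPKM in tumor monocytes and 40.9 to 122 RPKM in blood monocytes. C1qb, a complement gene, was at 7.64, 13.2, 4.42 and 15.1 RPKM in T_CC 1 to 4 and 0.261 to 2.65 RPKM in neutrophils (adjusted p = 0.0354). Its call was lost without T_CC 1, T_CC 2, T_CC 4, T_CG 3 or T_CG 4. Siglec1, a macrophage sialic acid receptor, reached 0.729, 2.54, 3.12 and 0.993 RPKM in T_CC 1 to 4, and at most 0.0542 RPKM in neutrophils. Cd163, a scavenger receptor of mature macrophages, was under 0.1 RPKM in all 8 libraries.

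**Figure D1:**
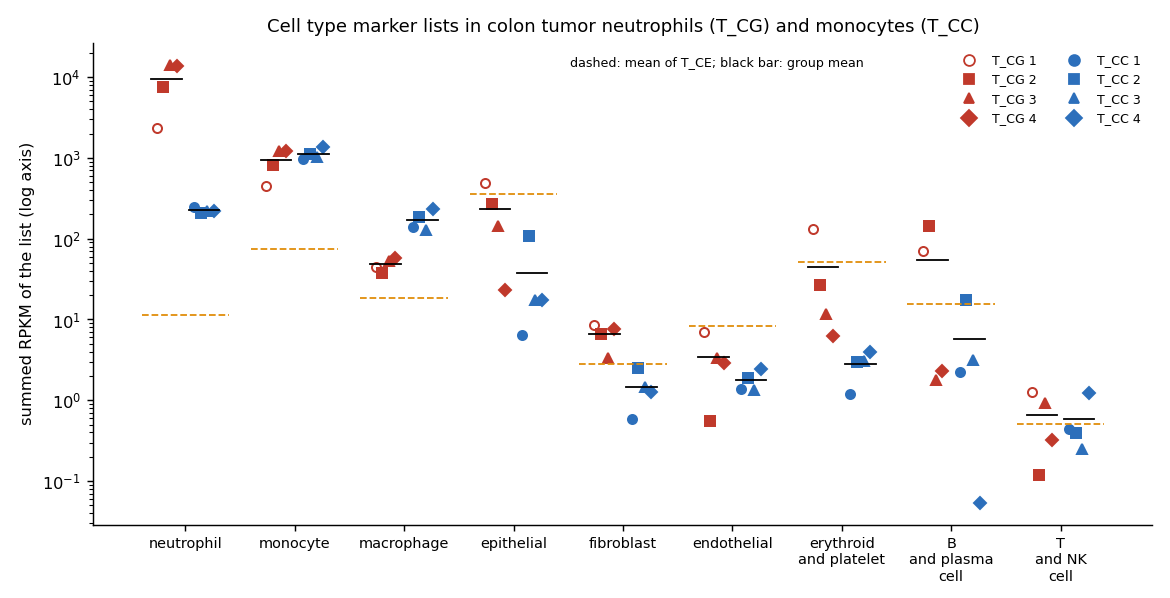
Summed RPKM (log axis) of 9 cell type marker lists in each library of tumor neutrophils (red) and tumor monocytes (blue), with group means (black bars) and the mean of tumor epithelial cells (dashed). Neutrophil markers lie at 2368 to 14290.4 RPKM in the red libraries and at 209 to 247 RPKM in the blue, and the epithelial list reaches 488 RPKM in T_CG 1 and 109 RPKM in T_CC 2.

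Transcripts of other cells were found in both groups. Of 19 epithelial markers tested, edgeR called 0, while 10 were higher in neutrophils at an unadjusted p under 0.05 and DESeq2 called 7 and limma-voom 0. Without T_CC 2 edgeR called 3. The summed epithelial markers were 6.47, 109, 17.5 and 17.5 RPKM in T_CC 1 to 4. Fibroblast markers summed to 3.35 to 8.57 RPKM in neutrophils and 0.579 to 2.51 RPKM in monocytes, without overlap. Of 10 such markers 2 were called higher, and 0 without T_CC 1, T_CC 4 or T_CG 4, 1 without T_CC 3 or T_CG 2 and 3 without T_CC 2. Endothelial markers summed to 0.556 to 6.91 and 1.33 to 2.45 RPKM. Of the erythroid and platelet markers 4 of 7 tested, all hemoglobin genes with near-identical copies, were higher in neutrophils, and 2 without T_CC 1, T_CC 2 or T_CC 4. Hbb-bs, a hemoglobin beta gene, was at 44.5, 5.24, 2.87 and 1.67 RPKM in T_CG 1 to 4 and at 0.186 to 0.717 RPKM in monocytes. Among 10 T and NK cell markers no member passed the filter on low counts, and the list summed to 0.119 to 1.27 RPKM in neutrophils and 0.252 to 1.23 RPKM in monocytes. B and plasma cell markers summed to 70.3, 143, 1.79 and 2.31 RPKM in T_CG 1 to 4 and to 0.0539 to 17.6 RPKM in monocytes. The eosinophil genes Prg2, Epx and Il5ra were under 0.1 RPKM in all 8 libraries. Siglecf, a sialic acid receptor known from eosinophils and also from tumor neutrophils, was at 0.721, 2.74, 1.77 and 2.63 RPKM in T_CG 1 to 4 and at 0.0565 to 0.224 RPKM in monocytes, with no overlap (log2 fold change 4.63 ± 0.86, adjusted p = 0.00946). The part of these other cells in the differences below was not tested. For each main gene the level in tumor epithelial cells is given where it matters. In bulk libraries of this kind, fewer cells of a type and less RNA per cell cannot be told apart.

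Over all genes, 1117 of 15003 tested (7.45%) differed between the 2 tumor cell types, 697 higher and 420 lower in neutrophils. Without T_CG 1 the number was 1731 of 15490 (11.2%), 997 higher and 734 lower. The fits shared 662 higher and 396 lower genes. All 35 genes that were called higher only with T_CG 1 in the fit had a mean RPKM in tumor epithelial cells of at least 10% of that in tumor neutrophils. In T_CG 1 the level was the lowest of the 4 neutrophil libraries for 449 of the 697 genes and the highest for 81. The RPKM ranges of the groups did not overlap for 562 of the 697 higher and 418 of the 420 lower genes, beside 20.6% of all genes tested. TMM, the scaling of library sizes in the test, had factors of 0.513 to 1.25 in neutrophil and 1.053 to 1.32 in monocyte libraries. No such scaling was applied to the RPKM, so these ranges are not on the scale of the calls. The number of calls was 547, 669, 652 and 518 without T_CC 1, 2, 3 and 4, respectively, and 599 and 613 without T_CG 3 and T_CG 4. The higher genes made up 62.4% of the calls with scaling by TMM, but 37.1% and 31.4% in limma fits on log2 RPKM with a pseudocount of 1 and 0.1, which moved the median of all genes to -0.30 and -0.58. Of the 697 higher genes, 337 had a mean RPKM in tumor epithelial cells under 10% of that in neutrophils, and 90 had a mean at or above it. For the 420 lower genes these numbers were 235 and 4, relative to the mean in monocytes. This split turned on T_CG 1. Without it the numbers were 496 and 65 of the 997 higher genes, and 257 and 114 of the 734 lower genes.

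**Figure D2:**
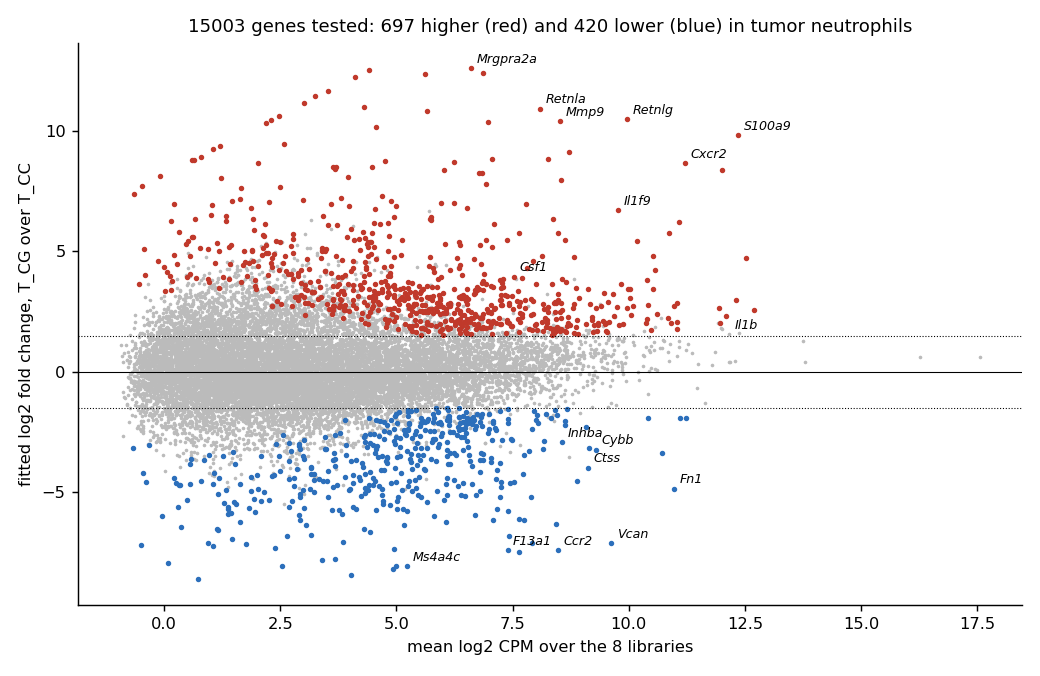
Fitted log2 fold change of tumor neutrophils over tumor monocytes against mean log2 CPM for each of the 15003 genes tested. The 697 genes called higher are red, the 420 called lower are blue, and dotted lines mark the fold threshold of 1.5. Mrgpra2a, Retnla, Retnlg, Mmp9 and S100a9 lie at the top and Ms4a4c, F13a1, Ccr2 and Vcan at the bottom.

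The genes with the largest differences were taken from the called ones whose log2 CPM (reads of a gene per library size) averaged 5 or more, with no overlap between the groups and an epithelial level under 10% of the higher group. In neutrophils they were, from the largest log2 fold change down, Mrgpra2a, Mrgpra2b, Cldn1, Retnla, Prok2, Retnlg, Mmp9, Asprv1, S100a9 and Stfa2l1. Without the condition on epithelial cells the first 5 were the same in both directions. Mrgpra2a and Mrgpra2b, neighboring and near-identical genes of Mas-related G protein-coupled receptors, were at 7.16, 31.8, 43.0 and 47.3 and at 8.09, 35.3, 47.3 and 53.1 RPKM in T_CG 1 to 4, and at no more than 0.0163 RPKM in any monocyte library. How the counting divided reads between such copies is not given in the sources used here. Both had at most 3 counts in every monocyte library and were at least 1275-fold and 1526-fold higher in neutrophils, taking 3 counts per library as the floor. Prok2, which encodes the secreted peptide Bv8, was at 2.96, 14.7, 18.6 and 17.8 RPKM in T_CG 1 to 4 and at 0.00592 to 0.00844 RPKM in monocytes, at least 658-fold higher. The same bound for Cldn1, a tight junction gene at 3.76 to 9.74 RPKM in neutrophils and 0.343 RPKM in tumor epithelial cells, was 647-fold. In all 4 genes the groups were separated by orders of magnitude.

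The resistin-like genes, which encode small secreted cysteine-rich proteins, followed the same order. Retnlg was at 78.1, 589.9, 1026 and 1005 RPKM in T_CG 1 to 4 and at 1.36, 0.920, 0.291 and 0.375 RPKM in T_CC 1 to 4 (log2 fold change 10.47 ± 1.11, adjusted p = 7.7e-04). Its neighbor Retnla was at 19.3, 181, 267 and 270.0 RPKM against at most 0.329 RPKM (10.91 ± 1.19, adjusted p = 8.2e-04). Retnlb, better known from goblet cells, was at 14.7, 60.1, 109 and 107 RPKM against 0.0471 to 1.70 RPKM (7.80 ± 1.25, adjusted p = 0.00499), with 7.06 RPKM in tumor epithelial cells. The 3 genes are similar in sequence and lie next to each other, and their neutrophil libraries ran in parallel, with T_CG 1 lowest each time. Retnlg lies at chr16:48872621-48874496 and Retnla at chr16:48842551-48844461 of GRCm38, the assembly also called mm10. S100a9, a subunit of the calcium-binding complex calprotectin, was at 1328, 1324, 7849 and 7290.1 RPKM in T_CG 1 to 4 and stood at 0.507 to 14.3 RPKM in monocytes (9.81 ± 1.23, adjusted p = 0.00167). Its partner S100a8 was at 385, 3385, 2846 and 2583 RPKM against 3.86 to 19.3 RPKM (8.34 ± 1.02, adjusted p = 0.00150). Asprv1, an aspartic protease known from skin, was at 16.3 to 40.9 RPKM against at most 0.112 RPKM.

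In the other direction the leading genes included Ms4a4c, F13a1, Ccr2, Vcan, Ms4a6d, H2-DMa, Pld4 and Hivep3. Ccr2 was at 0.491, 0.00563, 0.151 and 0.0775 RPKM in T_CG 1 to 4 and at 23.9, 35.2, 49.5 and 31.4 RPKM in T_CC 1 to 4 (log2 fold change -7.40 ± 0.95, adjusted p = 0.00193). F13a1, the transglutaminase subunit of coagulation factor XIII, was at 0.416, 0.00680, 0.0341 and 0.0984 RPKM against 26.1, 21.7, 31.6 and 27.2 RPKM (-7.41 ± 0.90, adjusted p = 0.00148). Vcan, which encodes the matrix proteoglycan versican, was at 0.0723 to 0.278 RPKM against 24.2 to 45.9 RPKM (-7.12 ± 0.48, adjusted p = 6.9e-05). For Ccr2 and F13a1 the neutrophil values were highest in T_CG 1 and lowest in T_CG 2, and for all 3 they stayed far below the monocyte range. Ms4a6d and Ms4a4c, 2 membrane proteins of a family with many close copies, were at 80.1 to 94.0 and 8.51 to 19.1 RPKM in monocytes and at most 1.5 and 0.123 RPKM in neutrophils. Pld4, an endolysosomal nuclease, was at 17.2 to 23.2 RPKM in monocytes, and Hivep3, a large zinc finger protein, at 6.21 to 10.6 RPKM, against at most 0.513 and 0.263 RPKM in neutrophils. These 8 genes and the 10 of the other direction were called in each of 20 alternative fits.

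**Figure D3:**
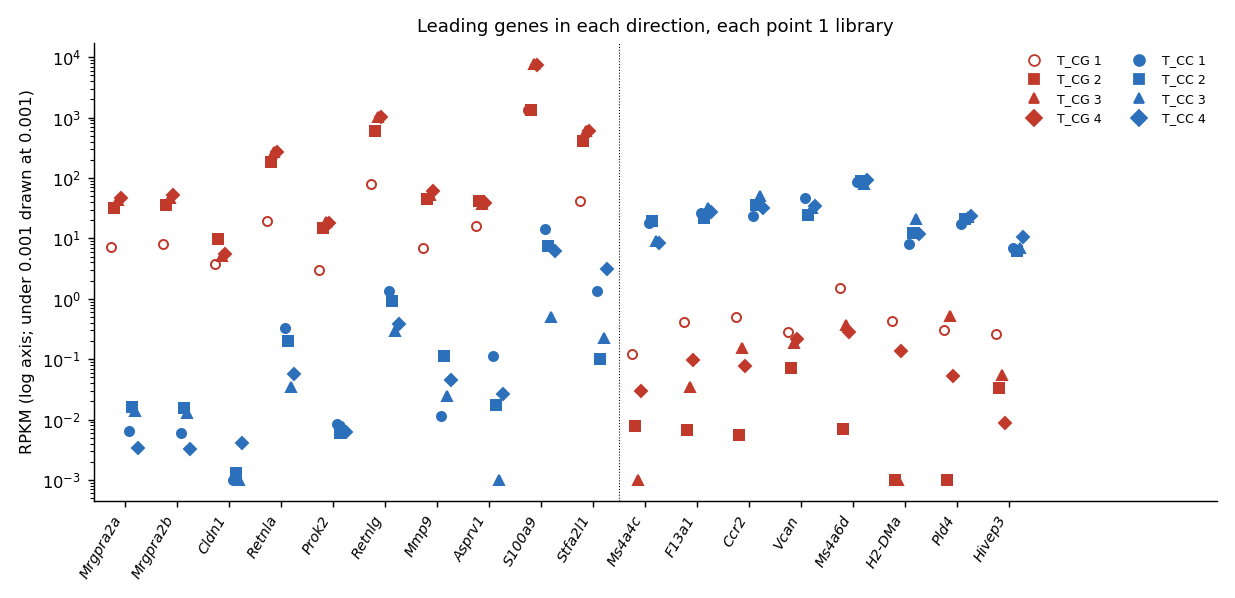
RPKM (log axis) of 10 leading genes higher and 8 lower in tumor neutrophils, 1 point per library of tumor neutrophils (red, T_CG 1 open) and tumor monocytes (blue); values under 0.001 RPKM are drawn at 0.001. The red and blue points do not overlap for any of the 18 genes, which was a condition of their choice.

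The promoters of these genes were searched for the letters of 2 motifs. C/EBP factors and PU.1 (encoded by Spi1) are transcription factors of the myeloid lineage. Windows of 250 bases before the start of 27025 genes were taken from RefSeq (GRCm38.p6) and searched on both strands for TTGCNNAA, a C/EBP form, and GAGGAAGT, a PU.1 form, which do not overlap each other in the windows printed here. The C/EBP letters were found in 9.55% of all windows, in 7.81% of those of the 9698 genes tested that had one, in 11.9% of those of genes called higher in neutrophils (59 of 494) and in 9.8% of those of genes called lower (30 of 306). For the PU.1 letters the shares were 2.44%, 2.82%, 6.68% (33 of 494) and 4.58% (14 of 306). The windows of 4 genes higher in neutrophils and of Ctsc, a lysosomal protease gene lower in neutrophils, are shown because they hold such letters, and that of Ccr2 because it leads the lower genes and holds neither. The starts are those of RefSeq. In the GENCODE annotation Ccr2 begins at chr9:124101950, so most of its window lies inside that gene. The Retnla window also ends past the gene start given above. The missing letters of Ccr2 therefore describe this window only. Matches are in capitals. They lie 172 bases before the start of S100a8 (PU.1), 236 before S100a9 (C/EBP), 198 (PU.1) and 134 (C/EBP) before Retnla, 246 before Retnlg (C/EBP) and 151 before Ctsc (PU.1). A match describes letters and is not a mapped site. The windows lie at chr3:90668821-90669070 (S100a8, plus strand), chr3:90695722-90695971 (S100a9, minus strand), chr16:48842359-48842608 (Retnla, plus), chr16:48872358-48872607 (Retnlg, plus), chr7:88277835-88278084 (Ctsc, plus) and chr9:124101933-124102182 (Ccr2, plus), 5′ to 3′ on the strand of the gene.
S100a8: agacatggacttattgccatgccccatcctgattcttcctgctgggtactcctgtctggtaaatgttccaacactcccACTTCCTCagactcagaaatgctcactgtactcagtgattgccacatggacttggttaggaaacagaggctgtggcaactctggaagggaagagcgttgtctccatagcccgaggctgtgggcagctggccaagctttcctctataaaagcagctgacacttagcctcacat
S100a9: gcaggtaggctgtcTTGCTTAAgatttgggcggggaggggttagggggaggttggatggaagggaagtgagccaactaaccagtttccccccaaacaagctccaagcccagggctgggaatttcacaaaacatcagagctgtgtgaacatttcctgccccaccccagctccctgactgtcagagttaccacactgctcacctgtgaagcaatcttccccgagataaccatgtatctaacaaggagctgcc
Retnla: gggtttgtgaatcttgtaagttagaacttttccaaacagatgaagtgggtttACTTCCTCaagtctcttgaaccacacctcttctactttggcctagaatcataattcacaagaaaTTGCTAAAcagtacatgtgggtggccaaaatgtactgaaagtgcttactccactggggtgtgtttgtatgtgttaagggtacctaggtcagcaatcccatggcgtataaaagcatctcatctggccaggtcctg
Retnlg: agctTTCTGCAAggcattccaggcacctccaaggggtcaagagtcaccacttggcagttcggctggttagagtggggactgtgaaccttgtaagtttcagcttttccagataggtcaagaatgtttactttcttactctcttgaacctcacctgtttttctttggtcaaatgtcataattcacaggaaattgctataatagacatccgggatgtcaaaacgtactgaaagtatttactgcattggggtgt
Ctsc: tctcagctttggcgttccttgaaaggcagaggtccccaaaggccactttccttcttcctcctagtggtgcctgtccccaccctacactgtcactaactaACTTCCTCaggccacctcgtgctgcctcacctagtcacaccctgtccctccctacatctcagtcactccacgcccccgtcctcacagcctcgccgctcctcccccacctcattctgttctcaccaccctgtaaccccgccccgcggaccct
Ccr2: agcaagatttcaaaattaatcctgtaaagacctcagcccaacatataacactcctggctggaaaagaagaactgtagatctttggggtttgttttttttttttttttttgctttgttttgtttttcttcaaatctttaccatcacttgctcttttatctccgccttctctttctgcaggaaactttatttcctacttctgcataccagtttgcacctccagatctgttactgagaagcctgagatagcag

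Neutrophil granule proteins were mostly, but not all, higher in neutrophils. Of 14 tested members of 19, 9 were called higher and 1 lower (median log2 fold change 2.65). The number called higher was 5 without T_CC 1, T_CC 3 or T_CC 4, and 11 without T_CG 1, where 2 were lower. Ngp, neutrophilic granule protein, was at 6.62, 8.74, 49.1 and 66.9 RPKM in T_CG 1 to 4 and at 0.116 to 1.1 RPKM in monocytes (6.77 ± 1.1, adjusted p = 0.00550). Lcn2, the iron-binding lipocalin of specific granules, was at 51.4, 142, 234 and 304 RPKM against 3.48 to 8.55 RPKM (5.40 ± 0.70, adjusted p = 0.00194), with 18.9 RPKM in tumor epithelial cells. For both genes T_CG 3 and T_CG 4 were the highest libraries. Olfm4, a glycoprotein of some specific granules, was at 1.88 to 5.93 RPKM in neutrophils and at the floor in monocytes, at least 230.4-fold higher. The member that ran against the list was Chil3, which encodes the chitinase-like protein Ym1. It was at 0.160, 0.0113, 1.38 and 1.66 RPKM in T_CG 1 to 4 and at 126, 26.7, 85.8 and 57.6 RPKM in T_CC 1 to 4, with no overlap (-6.09 ± 1.17, adjusted p = 0.0109).

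Matrix-degrading enzymes were called in both directions. Of 24 metalloproteinases and inhibitors tested, 7 were higher and 2 lower in neutrophils (median 1.02). The number called higher was 4 without any 1 of the monocyte libraries. The number called lower was 4 without T_CG 1, 5 without T_CG 2 and 1 without T_CC 3, T_CC 4 or T_CG 4. Mmp9, a gelatinase stored in neutrophil granules (chr2:164940780-164955850 of GRCm38), was at 6.81, 45.5, 52.8 and 61.6 RPKM in T_CG 1 to 4 and at 0.0115, 0.112, 0.0249 and 0.0450 RPKM in T_CC 1 to 4 (10.40 ± 1.08, adjusted p = 7.2e-04). Mmp25, a membrane-anchored protease of leukocytes, was at 2.39, 6.81, 15.8 and 15.8 RPKM against 0.131 to 1.01 RPKM (5.25 ± 0.91, adjusted p = 0.00722). The sheddase gene Adam19 was at 3.57, 14, 14 and 17.5 RPKM against 0.964 to 1.86 RPKM (3.90 ± 0.59, adjusted p = 0.00406). Timp2, an inhibitor of these enzymes, was at 3.60 to 13.6 RPKM against 0.189 to 1.73 RPKM and so rose with the proteases of its list (4.01 ± 0.73, adjusted p = 0.00875). Monocytes held 2 enzymes of their own. Mmp14, a membrane-bound collagenase, was at 1.86, 0.269, 0.526 and 0.526 RPKM in T_CG 1 to 4 and at 8.23, 6.48, 4.99 and 12.2 RPKM in T_CC 1 to 4 (-3.00 ± 0.50, adjusted p = 0.00599), with 4.71 RPKM in tumor epithelial cells. Mmp19 was at 0.253, 2.09, 0.0858 and 0.325 RPKM against 20.5, 31.9, 54.3 and 33.0 RPKM (-4.79 ± 1.06, adjusted p = 0.0199), and was not called without T_CC 3, T_CC 4 or T_CG 4 (adjusted p = 0.0578 to 0.0657). The neutrophil collagenase gene Mmp8 had overlapping ranges, with 16.4, 45.1, 180.1 and 279.9 RPKM in neutrophils and 13.6 to 29.0 RPKM in monocytes. It was called over all libraries (3.22 ± 0.78, adjusted p = 0.0298) and without T_CG 1 or T_CG 2, but not without any other library (adjusted p = 0.0771 to 0.108). Adam8, a leukocyte sheddase, was at 35.5 to 114 RPKM against 21 to 31.5 RPKM (2.36 ± 0.48, adjusted p = 0.0135), and lost its call without any 1 of the monocyte libraries (adjusted p = 0.0526 to 0.0775).

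In the TGF-beta pathway few genes were called, and those that were, Tgfb1 and Inhba, were higher in monocytes. TGF-beta is a secreted cytokine that restrains T cells, is released in a latent form, and signals through a pair of kinase receptors to Smad proteins. Of 29 tested members of the pathway, 2 were called lower in neutrophils (6.90%, median 0.26), with and without each library. Over all genes tested 2.80% were called lower and 7.45% in either direction, so the pathway was called at about the general share. Both called members are ligands. Tgfb1 (chr7:25687002-25705077 of GRCm38) was at 1.30, 0.591, 3.30 and 2.73 RPKM in T_CG 1 to 4 and at 17.4, 14.5, 13 and 27.5 RPKM in T_CC 1 to 4 (-2.70 ± 0.52, adjusted p = 0.0111). Inhba, the activin A subunit gene (chr13:16011851-16031621), was at 10.2, 9.27, 9.83 and 9.31 RPKM against 124, 64.7, 80.6 and 159.8 RPKM (-2.92 ± 0.41, adjusted p = 0.00239). For both ligands every monocyte library lay above every neutrophil library, with the highest level in T_CC 4, and neither depended on T_CG 1, without which the log2 fold changes were -2.57 and -2.88. Tgfb2 was at 0.207 to 0.972 RPKM in neutrophils and 0.00941 to 0.325 RPKM in monocytes, below its 2.14 RPKM in tumor epithelial cells. Tgfb3 was at 0.00675 to 0.308 RPKM and 0.0772 to 0.392 RPKM. Neither passed the test (adjusted p = 0.218 and 0.692). Thbs1, whose product thrombospondin can activate latent TGF-beta, was at 32.4, 60.8, 75.3 and 95.3 RPKM in neutrophils and 175, 182, 219 and 417 RPKM in monocytes. It did not overlap but was short of both the adjusted p and the fold threshold (-1.31 ± 0.49, adjusted p = 0.135). Tgfbi, a gene that TGF-beta induces, was at 11.6 to 45.6 RPKM against 112 to 165 RPKM and fell short likewise (-1.48 ± 0.48, adjusted p = 0.0902). Among members higher in neutrophils edgeR called 0 of the list, and 1 without T_CG 2, with 4 at an unadjusted p under 0.05, while DESeq2 called 1 and limma-voom 0.

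Of 14 genes of T-cell suppression tested, 2 were higher and 2 lower in tumor neutrophils (median 0.19). Without T_CG 1, 4 were higher and 3 lower, and the number called higher was 0 without T_CC 4 and 1 without T_CC 1, T_CC 2 or T_CC 3. Entpd1, which encodes CD39, the enzyme that degrades extracellular ATP on the way to adenosine, was at 31.1, 66.5, 88.2 and 96.2 RPKM in T_CG 1 to 4 and at 24.9, 9.53, 13.4 and 15.6 RPKM in T_CC 1 to 4 (2.74 ± 0.53, adjusted p = 0.0111). Its call was lost without T_CC 4 (adjusted p = 0.0663). Arg2, the mitochondrial arginase, was at 34.2, 130.1, 89.1 and 103 RPKM against 21.4, 29.1, 21.6 and 33.0 RPKM (2.46 ± 0.53, adjusted p = 0.0185), and was not called without any 1 of the monocyte libraries (adjusted p = 0.0567 to 0.0916). For both genes the groups did not overlap, and T_CG 1 was nearest to the monocytes. Without T_CG 1 the adjusted p was 9.1e-04 for Entpd1 and 0.00107 for Arg2. Nt5e, the CD73 enzyme that completes the path to adenosine, was low in both cell types, at 0.988 to 2.55 RPKM and 0.565 to 1.18 RPKM (adjusted p = 0.0598, and 0.0116 without T_CG 1).

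The 2 genes of this list called lower in neutrophils were Cybb and Havcr2, and the other arginase was called lower without T_CG 1. Arg1, the cytosolic arginase, was at 2.94, 0.0132, 0.0187 and 0.428 RPKM in T_CG 1 to 4 and at 7.01, 15.4, 19.7 and 40 RPKM in T_CC 1 to 4. The groups did not overlap, but T_CG 1 lay far above the other neutrophil libraries. In the edgeR test over all libraries Arg1 was not called (-4.47 ± 1.25, adjusted p = 0.0531), and without T_CG 1 it was (-6.59, adjusted p = 0.00889). Of 20 alternative fits 9 called Arg1 lower in neutrophils. Cybb, the catalytic subunit of the phagocyte NADPH oxidase, was at 4.85, 1.28, 5.97 and 7.45 RPKM against 64.5, 50.9, 70.4 and 60.1 RPKM (-3.23 ± 0.47, adjusted p = 0.00310). Havcr2, the checkpoint receptor TIM-3, was at 2.13, 0.109, 1.21 and 1.14 RPKM against 33.1, 27.1, 32.8 and 42.8 RPKM (-4.58 ± 0.62, adjusted p = 0.00226). Both were called without each library in turn. Ptgs2, Il10 and Nos2, which the study names, and Cd274 were not called in any of 20 alternative fits. Ptgs2, the inducible cyclooxygenase, was at 58.7, 323, 85.2 and 48.5 RPKM in neutrophils and at 104 to 153 RPKM in monocytes, where all libraries but T_CG 2 were below the monocyte range (0.79 ± 0.72, adjusted p = 0.541, and -0.68 without T_CG 2). Cd274, which encodes PD-L1, was at 50.3, 99.6, 47.8 and 42.1 RPKM against 93.9, 26.0, 23.3 and 32.9 RPKM (1.11 ± 0.60, adjusted p = 0.297). Il10 was at 4.75 to 7.0 RPKM against 3.69 to 16.5 RPKM, the highest value being that of T_CC 2 (adjusted p = 0.790). Nos2, the inducible nitric oxide synthase, was at 2.12, 0.0593, 7.03 and 8.98 RPKM in neutrophils and at 21.7, 0.619, 1.05 and 2.32 RPKM in monocytes (adjusted p = 0.971). The ranges of the groups overlapped for all 4.

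**Figure D4:**
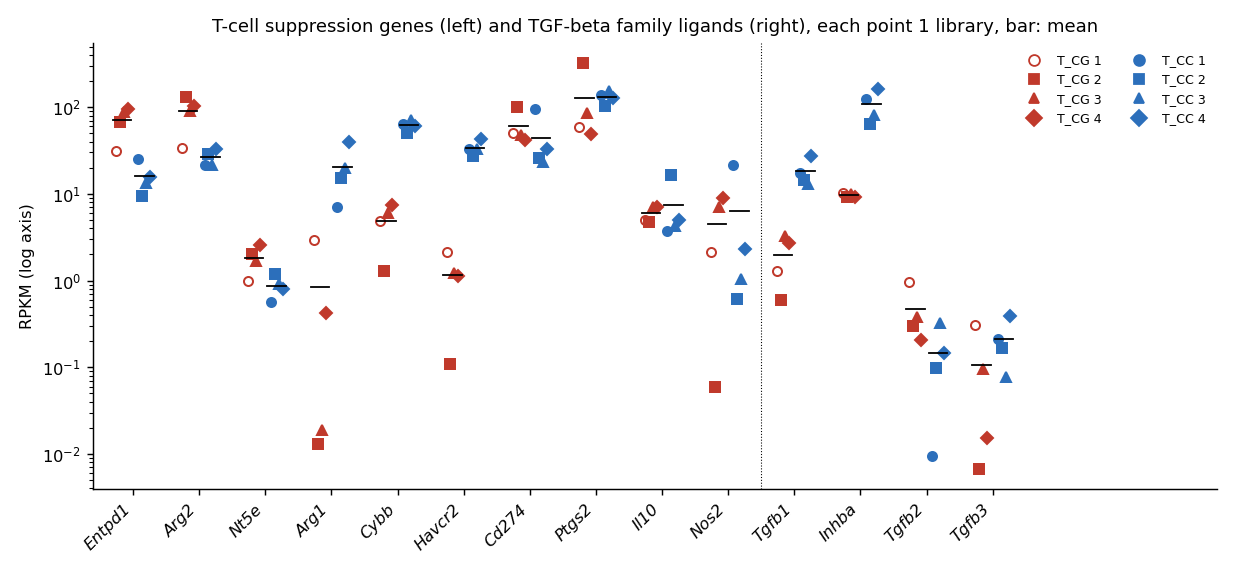
RPKM (log axis) of 10 T-cell suppression genes and 4 TGF-beta family ligands, 1 point per library of tumor neutrophils (red, T_CG 1 open) and tumor monocytes (blue), with group means as bars. Entpd1 and Arg2 are higher in the red libraries, Arg1, Cybb, Havcr2, Tgfb1 and Inhba in the blue, and Cd274, Ptgs2, Il10 and Nos2 overlap.

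Chemokines and their receptors were called in both directions. Of 21 chemokines tested, 5 were higher and 3 lower in neutrophils (median -1.36, but 0.10 without T_CG 1). Calls in this list depended on single libraries. The number called higher was 0 without T_CC 1, T_CC 2 or T_CC 4, 1 without T_CC 3 and 2 without T_CG 3, and the number called lower was 7 without T_CG 2 and 1 without T_CG 3 or T_CG 4. Cxcl2, a ligand of Cxcr2, was at 336, 906, 753 and 638 RPKM in T_CG 1 to 4 and at 82.5, 209.7, 132 and 262 RPKM in T_CC 1 to 4 (2.63 ± 0.56, adjusted p = 0.0169). Cxcl3, another Cxcr2 ligand, was at 37.4 to 149.9 RPKM against 9.68 to 26.4 RPKM (2.70 ± 0.62, adjusted p = 0.0241). Ccl3, a ligand of Ccr1, was at 279.8, 1501, 299 and 253 RPKM against 36.0, 59.9, 138 and 57.7 RPKM (3.80 ± 0.87, adjusted p = 0.0239), with T_CG 2 far above the rest. Ccl4, its close relative, was at 10.7, 47.8, 22.7 and 12.4 RPKM against 2.83 to 7.11 RPKM (3.01 ± 0.69, adjusted p = 0.0241). All 4 separated the groups without overlap. Without T_CC 1, T_CC 2, T_CC 3 or T_CC 4 the adjusted p was 0.0510 to 0.0889 for Cxcl2. Leaving out any of these libraries, or T_CG 3, gave 0.0512 to 0.108 for Cxcl3 and 0.0548 to 0.0988 for Ccl4, and for Ccl3 it was 0.0710 to 0.105 without T_CC 1, T_CC 2 or T_CC 4.

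Ccl9 was the most stable chemokine of monocytes. It was at 2.48, 3.58, 6.53 and 7.06 RPKM in T_CG 1 to 4 and at 32.1, 55.2, 71.9 and 52.9 RPKM in T_CC 1 to 4 (-2.88 ± 0.48, adjusted p = 0.00628), called with each library left out. Cxcl16, a membrane-bound ligand that draws T cells, was at 4.54, 0.0360, 1.05 and 0.437 RPKM against 15.2 to 20.2 RPKM (-3.37 ± 0.90, adjusted p = 0.0447), and was not called without any 1 of 6 libraries, namely the 4 of monocytes, T_CG 3 and T_CG 4 (adjusted p = 0.0743 to 0.120). Ccl5 was at no more than 0.0577 RPKM in neutrophils and at 4.07, 0.521, 0.770 and 0.774 RPKM in monocytes, where every neutrophil library was at the floor, so that it was at least 20.6-fold higher in monocytes. It was not called without T_CG 3 or T_CG 4 (adjusted p = 0.0639 and 0.0646). Cxcl10, an interferon-induced ligand for T cells, was at 5.43 to 8.58 RPKM in neutrophils and at 382, 24.4, 21.1 and 23.3 RPKM in monocytes. Its groups did not overlap, T_CC 1 stood far above all others, and the call was missed over all libraries (adjusted p = 0.0534). Among the fits without 1 library only that without T_CC 2 called Cxcl10 (0.0483), while 4 alternative fits with other settings called it. Tumor epithelial cells held 11.1 RPKM of Cxcl10.

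Among 17 chemoattractant receptors tested, 6 were higher and 3 lower in neutrophils (median 1.52). The number called higher was 3 without T_CC 2, T_CC 3, T_CC 4 or T_CG 4, and the number called lower was 2 without T_CC 3 or T_CC 4. Cxcr1, the second CXC chemokine receptor of neutrophils, was at 1.51, 2.33, 4.71 and 4.95 RPKM in T_CG 1 to 4 and at the floor in every monocyte library, at least 152-fold higher. Fpr1, a receptor for formylated bacterial peptides, was at 35.1, 88.8, 166 and 208 RPKM against 2.07 to 7.65 RPKM (5.47 ± 0.73, adjusted p = 0.00212). The complement C5a receptor gene C5ar1 overlapped, at 47.1, 214, 202 and 224 RPKM in neutrophils and 39.8 to 78.5 RPKM in monocytes. It passed narrowly (2.19 ± 0.60, adjusted p = 0.0487) and was not called without any 1 of the 7 libraries other than T_CG 1 (adjusted p = 0.0839 to 0.177). Cxcr4, the receptor that holds cells in bone marrow, was at 22.2 to 52.8 RPKM and 42.1 to 65.3 RPKM and did not pass the test (adjusted p = 0.792).

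Inflammatory cytokines and their receptors went both ways. Of 35 tested, 6 were higher and 4 lower in neutrophils (median 0.61), with 5 to 8 higher over the fits without 1 library, and 2 lower without T_CC 2, T_CC 3, T_CC 4, T_CG 3 or T_CG 4. The interleukin 36 gamma gene Il1f9 stood out for its level and its evenness. It was at 117, 220.1, 254 and 285 RPKM in T_CG 1 to 4 and at 4.23, 3.06, 2.16 and 3.38 RPKM in T_CC 1 to 4 (6.70 ± 0.56, adjusted p = 2.0e-04). Among interleukin 1 receptors, the decoy receptor gene Il1r2 and the co-receptor gene Il1rap, were at 46.0 to 142 and 4.54 to 17.4 RPKM in neutrophils against 12.1 to 22.2 and 1.34 to 1.56 RPKM in monocytes (3.42 ± 0.51 and 3.84 ± 0.55, adjusted p = 0.00366 and 0.00296). Csf1, the growth factor of monocytes and macrophages, was higher in neutrophils. It was at 11.6, 20.5, 9.84 and 11.1 RPKM in neutrophils against 1.55, 0.752, 1.51 and 1.59 RPKM in monocytes (3.94 ± 0.54, adjusted p = 0.00227), with 2.59 RPKM in tumor epithelial cells. Il1b, the main interleukin 1 ligand, was abundant in both, at 291, 1129, 776 and 627 RPKM and 339, 419, 367 and 443 RPKM, where T_CG 1 was below and the other neutrophil libraries above all monocyte libraries (1.56 ± 0.54, adjusted p = 0.110, and 0.00842 without T_CG 1). Its antagonist Il1rn was at 93.5 to 221 RPKM and 114 to 207 RPKM (adjusted p = 0.308).

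Monocytes held more of the growth factor Vegfa and of the cytokines Lif and Il6. Lif was at 1.07, 0.453, 0.137 and 0.171 RPKM in T_CG 1 to 4 and at 3.96, 5.57, 4.58 and 8.17 RPKM in T_CC 1 to 4 (-3.17 ± 0.63, adjusted p = 0.0121), with 1.82 RPKM in tumor epithelial cells. Vegfa, which drives vessel growth, was at 8.52, 9.72, 7.04 and 5.60 RPKM against 24.6, 29.0, 56.4 and 47.8 RPKM (-1.78 ± 0.44, adjusted p = 0.0339). Il6 was at 0 to 0.251 RPKM against 2.49 to 5.29 RPKM (-4.90 ± 1.13, adjusted p = 0.0242). No range overlapped for these 3 genes. Vegfa was not called without any 1 of the 4 monocyte libraries, T_CG 3 or T_CG 4 (adjusted p = 0.0534 to 0.121). For Il6 the call was lost without T_CC 2, T_CC 3, T_CC 4, T_CG 3 or T_CG 4 (adjusted p = 0.0530 to 0.0645).

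Pattern recognition receptors sense microbes. Of 20 pattern recognition genes, 5 were higher and 2 lower in neutrophils (median 0.71), 8 and 3 without T_CG 1. The number called higher was 1 without T_CC 1, T_CC 2 or T_CC 3, 2 without T_CC 4, T_CG 3 or T_CG 4 and 3 without T_CG 2, and the number called lower was 1 without T_CG 3 or any 1 of the monocyte libraries. Clec4d, a lectin for fungal and mycobacterial glycolipids, was at 111, 181, 271 and 281 RPKM in T_CG 1 to 4 and at 48.8, 51.8, 25.0 and 44.6 RPKM in T_CC 1 to 4 (2.91 ± 0.46, adjusted p = 0.00499), called without each library in turn. The 2 genes called lower were Tlr9 and Tlr7, both Toll-like receptors of the endosome. Tlr9, for unmethylated DNA, was at 0.383, 0.143, 0.520 and 1.11 RPKM against 8.47, 10.9, 8.31 and 8.50 RPKM (-3.60 ± 0.56, adjusted p = 0.00439). Tlr7, for single-stranded RNA, was at 0.0244 to 1.66 RPKM against 9.94 to 11.9 RPKM (-3.44 ± 0.81, adjusted p = 0.0264). Tlr6, a surface receptor for lipopeptides, was higher in neutrophils, at 7.50, 23.8, 12.7 and 12.0 RPKM against 1.39 to 5.45 RPKM (2.97 ± 0.63, adjusted p = 0.0166), as was the inflammasome gene Nlrp3, at 64.5, 209, 149.9 and 166 RPKM against 46.4 to 53.3 RPKM (2.22 ± 0.51, adjusted p = 0.0240). None of these 5 genes overlapped between the groups. The calls of Tlr7 (adjusted p = 0.0518 to 0.0796 without T_CG 3 or any 1 monocyte library), Tlr6 (0.0554 to 0.0682 without T_CC 1, T_CC 2 or T_CC 3) and Nlrp3 (0.0612 to 0.114 without T_CG 3, T_CG 4 or any 1 monocyte library) were lost without single libraries.

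Of 18 receptors for antibodies, sugars and lipids tested, 6 were called lower and 3 higher in neutrophils, while the difference was above 0 for 11 and below 0 for 7 (median 0.42), with 4 to 7 lower and 2 to 4 higher over the fits without 1 library. The number was 4 lower and 2 higher without T_CG 3, T_CG 4 or any 1 of the monocyte libraries. Fcgr1, the high-affinity receptor for immunoglobulin G, was at 0.146, 0.0258, 0.0624 and 0.254 RPKM in T_CG 1 to 4 and at 10.8, 11.7, 2.92 and 8.85 RPKM in T_CC 1 to 4 (-5.70 ± 0.74, adjusted p = 0.00194). Fcgr2b, the inhibitory Fc receptor, was at 2.55 to 5.31 RPKM against 20.3 to 28.3 RPKM (-2.14 ± 0.38, adjusted p = 0.00770). Clec4a3, an inhibitory lectin, was at 0.300 to 1.16 RPKM against 11.4 to 17.2 RPKM (-4.01 ± 0.57, adjusted p = 0.00264). Higher in neutrophils were Cd300ld and Cd300lf, 2 lipid-binding receptors of a clustered family. Cd300ld was at 14.4, 57.8, 54.4 and 55.6 RPKM against 3.61, 6.39, 6.72 and 6.72 RPKM (3.62 ± 0.59, adjusted p = 0.00526). Cd300lf was at 12.4 to 39.5 RPKM against 4.13 to 6.02 RPKM (2.86 ± 0.48, adjusted p = 0.00601). The 5 genes did not overlap between the groups.

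Both groups had been sorted as negative for the MHC class II surface protein. Of 13 genes of antigen presentation by MHC class II that were tested, none was called higher and 6 were lower in neutrophils (median -3.07) and 7 without T_CG 1 or T_CG 2, but 4 without T_CC 2, T_CC 3, T_CC 4, T_CG 3 or T_CG 4. H2-DMa, which helps load peptides, was at 0.435, 0, 0 and 0.137 RPKM in T_CG 1 to 4 and at 8.19, 12.1, 21.2 and 11.7 RPKM in T_CC 1 to 4 (-6.37 ± 1.19, adjusted p = 0.00978). Its locus overlaps other genes, so its reads may be shared with them. H2-Aa, an MHC class II alpha chain, was at 4.96, 0.149, 1.65 and 0.491 RPKM against 11.1, 27.0, 18.1 and 32.4 RPKM (-3.37 ± 0.78, adjusted p = 0.0240), not called without T_CC 2, T_CC 3, T_CC 4, T_CG 3 or T_CG 4 (adjusted p = 0.0539 to 0.0697). Cd74, the invariant chain, was present in both, at 21.5, 19.7, 25.6 and 19.1 RPKM against 85.4, 133, 106 and 271 RPKM (-2.22 ± 0.42, adjusted p = 0.0106). Cd86, a co-stimulatory ligand for T cells, was at 0.951, 0.123, 1.88 and 1.75 RPKM against 21.8, 17.5, 25.1 and 18.3 RPKM (-3.73 ± 0.65, adjusted p = 0.00742). Cd40, a co-stimulatory receptor, was at 0.00932 to 0.274 RPKM against 2.24 to 6.33 RPKM (-4.72 ± 0.85, adjusted p = 0.00851). For each of these 5 genes all neutrophil libraries lay below all monocyte libraries. Cd80, the other ligand of the same T-cell receptors as Cd86, was at 15.2, 58.4, 50.9 and 39.9 RPKM in T_CG 1 to 4 and at 29.3, 28.8, 47.2 and 49.8 RPKM in T_CC 1 to 4, and was not called (0.76 ± 0.53, adjusted p = 0.422). Its ranges overlapped.

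Complement genes were higher in monocytes in 4 of 13 tested and higher in neutrophils in 1, which is C5ar1 (median 0.06, the same as over all genes). The 4 became 2 without T_CC 1, T_CC 2, T_CC 4, T_CG 3 or T_CG 4, and C5ar1 dropped out as given above. C3ar1, the C3a receptor, was at 0.872, 3.1e-04, 0.284 and 0.223 RPKM in T_CG 1 to 4 and at 11.3, 17.2, 28.4 and 25.7 RPKM in T_CC 1 to 4 (-5.69 ± 1.03, adjusted p = 0.00866). Of the receptors for the 2 complement peptides, that for C3a was higher in monocytes and that for C5a in neutrophils, with overlap for the latter.

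The respiratory burst did not move as 1 block. Of 11 genes of the NADPH oxidase and its surroundings, 3 were higher and 1 lower in neutrophils (median 0.25), and only 1 was higher without any 1 of the monocyte libraries. That lower one was Cybb, described above, whose product is the membrane-bound catalytic core. The cytosolic organizer Ncf1 went the other way, at 18.1, 33.7, 35.6 and 38.8 RPKM in T_CG 1 to 4 and at 9.53, 7.41, 6.65 and 8.18 RPKM in T_CC 1 to 4 (2.60 ± 0.43, adjusted p = 0.00599). Its call held without each library, though mouse Ncf1 overlaps Gtf2ird2 on the other strand. Rac2, the small GTPase of the complex, was at 14, 74.8, 55.8 and 60.8 RPKM against 7.67 to 16.9 RPKM (2.83 ± 0.61, adjusted p = 0.0179). Its ranges overlapped through T_CG 1. Without any 1 of the monocyte libraries Rac2 was not called (adjusted p = 0.0562 to 0.0811).

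Eicosanoid synthesis had a call in each direction. Of 11 genes tested, 1 was higher and 1 lower in neutrophils (median -0.58), 2 and 1 without T_CG 1 and 1 and 2 without T_CG 2. Alox5, which opens the path to leukotrienes, was at 1.000, 3.75, 8.66 and 8.52 RPKM in T_CG 1 to 4 and at 0.220, 0.0674, 0.0138 and 0.0838 RPKM in T_CC 1 to 4 (6.42 ± 0.99, adjusted p = 0.00441). Pla2g4a, the phospholipase that releases arachidonic acid, was at 1.03, 0.291, 0.773 and 0.661 RPKM against 3.95, 4.29, 3.46 and 3.89 RPKM (-2.09 ± 0.37, adjusted p = 0.00728). Neither overlapped, and both were called without each library in turn. Alox5ap, the partner of the Alox5 product, was at 18 to 85.7 RPKM and 27.0 to 57.7 RPKM (adjusted p = 0.197).

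Among 30 myeloid transcription factor genes tested, 6 were lower and 4 higher in neutrophils (median 0.33), 7 and 5 without T_CG 1. The lower ones numbered 5 to 8 over the fits without 1 library, while the higher ones fell to 0 without T_CC 1, T_CC 3 or T_CC 4, to 1 without T_CG 3 and to 2 without T_CC 2, T_CG 2 or T_CG 4. Irf8, a determinant of the monocyte and dendritic cell fate, was at 0.340, 0.00461, 0.0900 and 0.0222 RPKM in T_CG 1 to 4 and at 6.51, 3.00, 2.23 and 3.05 RPKM in T_CC 1 to 4 (-4.83 ± 0.95, adjusted p = 0.0115). Irf4 was at 0.00118 to 0.0853 RPKM against 1.45 to 3.42 RPKM (-6.53 ± 1.05, adjusted p = 0.00524). In both, T_CG 1 was the highest neutrophil library and still below every monocyte library. Of the genes higher in neutrophils, Ets2 was at 56.2, 106, 109.9 and 97.6 RPKM against 30.9 to 39.0 RPKM (2.02 ± 0.43, adjusted p = 0.0167) and Egr1, an immediate early gene, at 89.8, 166, 84.9 and 81.6 RPKM against 8.55, 44.1, 17.9 and 31.3 RPKM (2.76 ± 0.59, adjusted p = 0.0182). Both did not overlap, but tumor epithelial cells held 34.7 RPKM of Ets2 and 119 RPKM of Egr1. The call of Ets2 was lost without T_CG 3 or any 1 of the monocyte libraries (adjusted p = 0.0554 to 0.0995) and that of Egr1 without T_CC 1, T_CC 3 or T_CC 4 (0.0692 to 0.0769). A list of 17 genes induced by tissue dissociation had Egr1 as its only call (median 0.54), which became 0 without T_CC 1, T_CC 3 or T_CC 4, and 3 were called without T_CG 1.

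Energy and iron genes showed few but clear differences. Of 26 genes of glycolysis and hypoxia tested, 3 were higher in neutrophils (median 0.76), 5 without T_CG 1 and 1 without T_CC 1 or T_CC 4. Slc2a3, the high-affinity glucose transporter, was at 7.91, 30.7, 20.1 and 20.8 RPKM in T_CG 1 to 4 and at 0.177, 0.165, 0.146 and 0.0314 RPKM in T_CC 1 to 4 (7.94 ± 0.86, adjusted p = 7.8e-04), called without each library. Slc16a3, which exports lactate, was at 10.6, 30.7, 30.3 and 27.0 RPKM against 5.21 to 7.75 RPKM (2.54 ± 0.50, adjusted p = 0.0123), not called without T_CC 1 or T_CC 4 (adjusted p = 0.0697 and 0.0662). Of 29 genes of the respiratory chain and the TCA cycle, edgeR called 0 (median -0.41), with 2 lower at an unadjusted p under 0.05, while DESeq2 called 2 and limma-voom 0. Without T_CG 1 edgeR also called 0, but the difference was below 0 for 26 (median -0.85, against -0.13 over all genes). The summed list was at 122, 61.2, 69.3 and 59.5 RPKM in T_CG 1 to 4 and at 95.9 to 167 RPKM in monocytes. Its mean in tumor epithelial cells was 192 RPKM. Of 13 iron and heme genes tested, 4 were higher in neutrophils (median 1.19), and 3 without T_CC 1 or T_CC 4. They were Lcn2, given above, and Steap4, Slc40a1 and Tfrc. Steap4, a metalloreductase, was at 20.1, 45.7, 57.6 and 61.4 RPKM against 1.45, 2.64, 0.852 and 0.312 RPKM (5.76 ± 0.76, adjusted p = 0.00210). Slc40a1, the iron exporter ferroportin, was at 3.99, 1.81, 3.02 and 3.88 RPKM against 0.0113 to 0.0902 RPKM (7.0 ± 0.73, adjusted p = 7.2e-04). Neither gene overlapped between the groups. Tfrc, the transferrin receptor, was at 2.49 to 4.58 RPKM against 0.870 to 1.64 RPKM, beside 8.25 RPKM in tumor epithelial cells, and lost its call without T_CC 1 or T_CC 4 (adjusted p = 0.0599 and 0.0773).

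Of the lysosomal genes, 6 of 26 tested were lower and 1 higher in neutrophils (median -0.60) and 5 to 8 lower over the fits without 1 library. Ctss, a cathepsin that trims the invariant chain, was at 9.98, 13.1, 8.35 and 9.02 RPKM in T_CG 1 to 4 and at 198, 295, 212 and 282 RPKM in T_CC 1 to 4 (-3.99 ± 0.43, adjusted p = 7.8e-04). Ctsc, which activates granule proteases and whose promoter is shown above, was at 3.58, 1.75, 6.26 and 6.16 RPKM against 52.4, 51.1, 60.9 and 57.1 RPKM (-3.17 ± 0.43, adjusted p = 0.00226). Npc2, a cholesterol carrier, was at 0.508 to 2.60 RPKM against 12.8 to 27.7 RPKM (-3.65 ± 0.42, adjusted p = 0.00108), beside 3.53 RPKM in tumor epithelial cells. The 3 genes did not overlap with the neutrophils. The exception was the aspartic cathepsin gene Ctsd, at 67.2 to 141 RPKM in neutrophils and 28.0 to 73.7 RPKM in monocytes (1.65 ± 0.41, adjusted p = 0.0342), with overlap, 45.9 RPKM in tumor epithelial cells, and no call without T_CG 3, T_CG 4 or any 1 of the monocyte libraries (adjusted p = 0.0839 to 0.163). Of 15 lipid handling genes tested, 3 were lower and 1 higher (median 0.17), with 1 lower without T_CG 3. The lower ones included Apoe, at 5.0, 0.419, 1.09 and 0.518 RPKM against 9.31 to 30.4 RPKM (-3.25 ± 0.67, adjusted p = 0.0144, and 0.0544 without T_CG 3). Dgat2, which completes triglyceride synthesis, was the higher one, at 17.6 to 27.2 RPKM against 4.34 to 8.41 RPKM (2.44 ± 0.37, adjusted p = 0.00380).

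Survival and signaling lists held few calls. Of 21 Bcl2 family and survival genes, 4 were higher in neutrophils (median 0.31), and 2 without any 1 of the libraries other than T_CG 1. Bcl2l1, which encodes the survival protein Bcl-xL, was at 3.20, 6.35, 9.09 and 9.35 RPKM in T_CG 1 to 4 and at 0.350, 0.696, 0.101 and 0.513 RPKM in T_CC 1 to 4 (4.72 ± 0.66, adjusted p = 0.00264). Fas, a death receptor, was also higher, at 11.5, 13.7, 19.9 and 24.8 RPKM against 5.26, 2.89, 2.48 and 1.26 RPKM (3.09 ± 0.54, adjusted p = 0.00718). Both kept their calls without each library. Mcl1, a survival gene of neutrophils, was at 62.8 to 127 RPKM and 68.1 to 93.0 RPKM (adjusted p = 0.158). In the list of NF-kappaB and its feedback, 2 of 20 were higher and 1 lower (median 0.80). The higher ones became 7 without T_CG 1 and 1 without T_CC 1 or T_CC 4, and the lower one dropped out without T_CG 3, T_CG 4 or any 1 of the monocyte libraries. Nfkbiz, an inducible co-regulator, was at 71.3, 190.4, 162 and 172 RPKM against 25.1 to 41.5 RPKM (2.86 ± 0.50, adjusted p = 0.00737).

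Interferon-stimulated genes were called in 2 of 29 in each direction (median 0.69), the calls being 1 higher without T_CC 1, T_CC 3 or T_CC 4, 4 higher without T_CG 1, 4 lower without T_CG 2, 1 lower without T_CC 2 or T_CC 3 and 0 lower without T_CC 1, T_CC 4, T_CG 3 or T_CG 4. Ifitm1, a membrane protein that blocks virus entry, was at 31.9, 53.9, 70 and 65.7 RPKM in T_CG 1 to 4 and at 5.18 to 8.45 RPKM in monocytes (3.69 ± 0.45, adjusted p = 0.00163), beside 16.2 RPKM in tumor epithelial cells. The summed list was at 134, 778, 242 and 233 RPKM in neutrophils and at 485, 277, 136 and 215 RPKM in monocytes, with the highest library of each group, T_CG 2 and T_CC 1, standing apart from the rest. The cell cycle list had 0 calls among 20 genes tested by edgeR and by limma-voom and 1 by DESeq2, with 1 higher and 1 lower at an unadjusted p under 0.05. Its sum was 29.7 RPKM in T_CG 1 and 8.61 to 9.59 RPKM in the other neutrophil libraries, against 12.3 to 20.4 RPKM in monocytes and a mean of 45.4 RPKM in tumor epithelial cells.

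S100 proteins and cystatins were the functional list with the largest share of higher calls after the granule proteins, with 10 of 17 higher and 1 lower (median 2.64), and 7 or more higher without any 1 library. Stfa2l1, a stefin that inhibits cysteine proteases, was at 41.0, 406, 608 and 589 RPKM in T_CG 1 to 4 and at 0.0995 to 3.09 RPKM in monocytes (9.10 ± 1.35, adjusted p = 0.00342). The stefin genes are close copies, so single members are uncertain. The member that went the other way was S100a4, known from motile monocytes. It was at 0.351 RPKM in T_CG 1 and at most 3.6e-04 RPKM in the other neutrophil libraries, and at 16.1, 35, 4.24 and 39.5 RPKM in T_CC 1 to 4 (-7.82 ± 1.33, adjusted p = 0.00682). Of 18 adhesion genes, 4 were higher and 1 lower (median 0.75). The higher ones became 2 without T_CC 1 or T_CC 2 and 1 without T_CC 3 or T_CC 4. Cd9, a tetraspanin, was at 15.7, 15.7, 30.4 and 33.5 RPKM against 3.90 to 9.34 RPKM (2.46 ± 0.44, adjusted p = 0.00839) and was called without each library. Itgb7, an integrin of gut homing, was lower in neutrophils, at 0.406 to 1.17 RPKM against 5.85 to 8.76 RPKM (-2.44 ± 0.50, adjusted p = 0.0145), and was lost without T_CC 4 or T_CG 3 (adjusted p = 0.0608 and 0.0522).

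**Figure D5:**
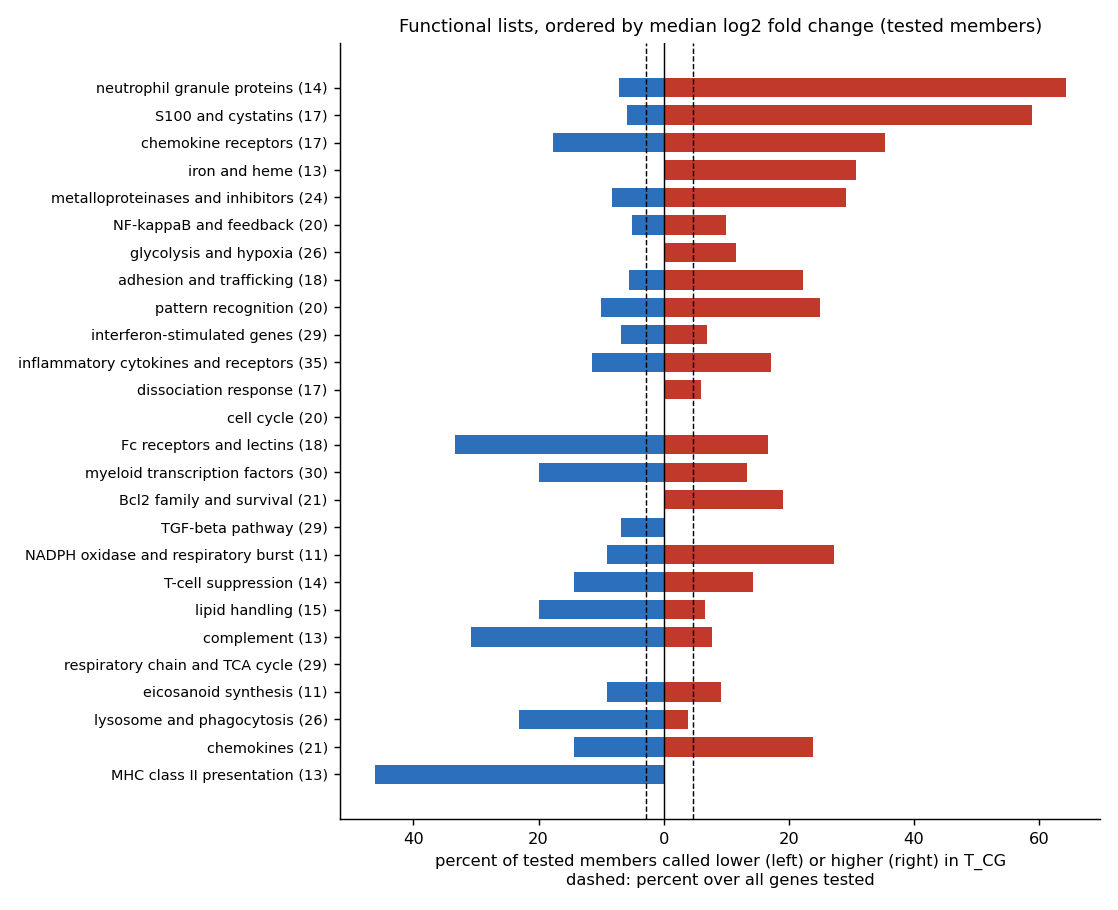
Percent of tested members of 26 functional lists called lower (blue, left) or higher (red, right) in tumor neutrophils, ordered by the list's median log2 fold change, with the number tested in parentheses and the percent over all genes (2.80% and 4.65%) dashed. Granule proteins and S100 proteins reach furthest to the right and MHC class II presentation furthest to the left, and the respiratory chain and cell cycle lists have no bar.

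The difference between the 2 cell types in the tumor was set against their difference in blood of the same kind of mice. The difference of differences was tested over 16 libraries and was called for 690 of 17465 genes (3.95%), 476 higher (2.73%) and 214 lower (1.23%), where higher means a larger neutrophil to monocyte ratio in the tumor than in blood. The median over all genes tested was 0.10. Of 20 neutrophil markers 4 were called lower in this test, and of 20 monocyte markers 4 were called higher. Of the genes described above, Inhba was among the lowest values. It was at 2.44 and 0.364 RPKM in blood neutrophils and blood monocytes and at 9.66 and 107 RPKM in those of the tumor, so that the order of the cells was opposite (-6.50 ± 0.84, adjusted p = 6.3e-04). Vegfa changed order in the same way, with 1.12 and 0.156 RPKM in blood (-5.46 ± 0.98, adjusted p = 0.00574). Steap4 was at 66.7 and 0.0564 RPKM in blood, and its tumor difference was smaller (-5.30 ± 1.01, adjusted p = 0.00802). Cybb did not pass this test (-1.32, adjusted p = 0.117), with 15.9 and 109 RPKM in blood.

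Of the genes named, Cldn1 had the highest difference of differences (10.33 ± 1.87, adjusted p = 0.00579). In blood it was at 0.556 RPKM in neutrophils (SD 0.243) and 0.256 RPKM in monocytes (SD 0.440). In every tumor monocyte library Cldn1 was at the floor of 3 counts, so the size of its value is uncertain. Tmem176b, Tmem176a, Ms4a8a, Shtn1 and Rnd3 had the 5 highest values among called genes whose log2 CPM averaged 5 or more over these libraries. Tmem176b and Tmem176a, overlapping neighbors that encode ion channel-like proteins, were at 0.0457 and 0.133 RPKM in blood neutrophils and 28.0 and 31.5 RPKM in blood monocytes. In the tumor Tmem176b was at 6.15, 3.55, 1.98 and 1.45 RPKM in T_CG 1 to 4 and 5.58, 10.5, 6.66 and 10.2 RPKM in T_CC 1 to 4, and Tmem176a at 1.67 to 13.7 RPKM and 6.98 to 13.1 RPKM. The ranges overlapped in the tumor, and the differences of differences were 7.68 ± 0.97 (adjusted p = 6.1e-04) and 7.28 ± 1.1 (adjusted p = 0.00196). Tumor epithelial cells held 12.3 and 20.6 RPKM of these genes. Ms4a8a, Shtn1 and Rnd3 were highest among neutrophils in T_CG 1, at 3.23, 2.42 and 7.90 RPKM, with 1.13, 3.16 and 17 RPKM in tumor epithelial cells. The part of epithelial RNA in these values was not tested. Nos2 had the lowest value among the genes named by rule (-7.40 ± 1.89, adjusted p = 0.0364), with 1.59 and 0.0187 RPKM in blood, but was not called without T_CC 1 (-5.05, adjusted p = 0.105) or any of 7 other libraries. Il1b, at 236 and 5.88 RPKM in blood, had a smaller difference in the tumor (-4.63 ± 0.80, adjusted p = 0.00477), and so had Il1rn, at 19.1 and 1.49 RPKM (-3.69 ± 0.61, adjusted p = 0.00383).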

How the data were processed

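RNA of 4 tumor neutrophil (T_CG) and 4 tumor monocyte (T_CC) libraries was analysed. The authors isolated RNA with PicoPure, amplified cDNA with NuGEN Ovation, made TruSeq Nano libraries, aligned reads to mm10 with Bowtie2 and counted them with HTSstation. The annotation release, strand and multiple mapping are not given in the sources used here. The authors deposited estimated counts per gene (99.6% of nonzero values not whole) and RPKM per gene. Counts were rounded, which changed a library total by at most 1105. Genes were tested with edgeR 4.0.16 (R 4.3.3, TMM, filterByExpr, robust quasi-likelihood, Benjamini-Hochberg over all genes tested) and called where the adjusted p was under 0.05 and the log2 fold change beyond 1.5 in either direction. RPKM served for levels per length. limma 3.58.1 (the tool of the authors, with voom) and DESeq2 1.42.0 were alternatives. In simulated data for this comparison with 14154 genes, 42 of 50 genes with a log2 fold change of 4 and 39 of 50 with -4 were called, 3 of 50 with 2 and 12 of 50 with -2, and 4 of 13954 unchanged genes.

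The smallest p of the exact two-sided permutation test is 0.0286 for 4 against 4 libraries and 0.0571 for 3 against 4. No 2 libraries of a group were alike within counting error. The members and the 37 gene lists were chosen with earlier results of these data known. Genes were named as the 10 leading genes per direction, the 5 without the epithelial condition, 12 genes the study names, up to 4 called members per list and direction and 2 that were not called, and the 5 leading genes per direction of the tumor and blood comparison. Values of Adam19, Adam8, Cd74, Fcgr2b, Fn1, Il1r2, Il1rap, Ly6c2, Ly6g, Mmp8 and S100a8 were added after they were seen. Some genes that the rule names are not reported here.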

Additional observations from a re-analysis of the deposited data

Results flagged for a closer look

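The RPKM of the genes named and the summed RPKM of the lists were screened for a library far from the other 3 of its group. The limit used gives about 1 in 20 for independent, normally distributed values. The groups share libraries, and sums of lists include single genes, so no excess over that rate can be read from the screen. Of 358 groups screened 44 stood out (12.3%). In T_CG 1 these were Csf3r at 51.6, Fn1 at 9.45, Apoe at 5.0, Hbb-bs at 44.5, Asprv1 at 16.3, Mmp14 at 1.86 and Arg1 at 2.94 RPKM. In the same library Il1rap was at 4.54, Cd300ld at 14.4, C5ar1 at 47.1, Birc3 at 16.6, Ms4a8a at 3.23, Shtn1 at 2.42 and Rnd3 at 7.90 RPKM. Its summed lists stood apart for erythroid and platelet markers (131 RPKM), chemokine receptors (348 RPKM), the respiratory chain and TCA cycle (122 RPKM) and the cell cycle (29.7 RPKM).

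T_CG 2 stood apart for Mmp19 at 2.09, Cd274 at 99.6, Ptgs2 at 323, Ccl3 at 1501, Csf1 at 20.5, Egr1 at 166, Cebpd at 12.9 and Pim1 at 113 RPKM, and for the sum of interferon-stimulated genes (778 RPKM). T_CC 1 stood apart for Mmp25 at 1.01, Cd274 at 93.9, Nos2 at 21.7, Ccl5 at 4.07, Cxcl10 at 382 and Cd300ld at 3.61 RPKM. T_CC 2 did so for Lypd8 at 52.5, Retnlb at 1.70, Il10 at 16.5, Csf1 at 0.752 and Tlr9 at 10.9 RPKM and for the summed epithelial markers (109 RPKM). In T_CC 3 it was Ngp at 1.1 RPKM. In T_CC 4 it was Adam8 at 31.5 and Cd300lf at 4.13 RPKM, with the sums of the TGF-beta pathway (881 RPKM) and of inflammatory cytokines and receptors (1375 RPKM).

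The difference between the cell types was not the same in tumor and blood for 24 of the genes named, by edgeR's test of the difference of differences. On the log2 scale, tumor minus blood, it was 5.47 for Fn1, 5.50 for Lypd8, 10.33 for Cldn1, 3.03 for Tlr9, 7.28 for Tmem176a, 7.68 for Tmem176b, 7.26 for Ms4a8a, 6.06 for Shtn1 and 6.01 for Rnd3. It was -3.19 for Trem1, -4.09 for Adam8, -6.50 for Inhba, -7.40 for Nos2, -5.46 for Vegfa, -4.63 for Il1b, -3.69 for Il1rn and -3.86 for Clec4d. It was -3.54 for Cd86, -4.48 for C3ar1, -3.53 for C5ar1, -3.60 for Ets2, -5.30 for Steap4, -3.97 for Cd9 and -5.34 for Aqp9. Of these 24 calls, 18 were kept in every alternative fit. When single libraries were left out, the call was lost in 13 fits and kept in 3 for Lypd8. For Tlr9 and Trem1 the call was lost in 10 and kept in 6 each, and for Nos2 lost in 8 and kept in 8. For C3ar1 the call was lost in 3 and kept in 13, and for Aqp9 lost in 1 and kept in 15.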

How the results depend on the processing

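Of 139 genes named, 114 were called, and 2134 of their 2394 alternative fits kept the call, with no change of direction; 71 kept it in every fit. Over all genes the number of calls was 518 to 1731 when each library was left out, 2384 with DESeq2 and 2629 with all 16 tumor libraries in the fit, against 1117. Without T_CG 1 it was 1166 to 2159 when a further library was left out and 3320 with DESeq2, against 1731. For the difference between tumor and blood it was 346 (without T_PG 2) to 1327 (without T_CG 2), and 1916 with DESeq2, against 690. The median of all genes was 0.31 with all 16 tumor libraries and -0.11 with limma-voom. The cause of these shifts was not tested. The alternatives for the comparison without T_CG 1 were chosen after seeing the data.

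The correlations of the deviations of same-numbered libraries were -0.148, -0.054, -0.028 and 0.037. They cannot show whether libraries with a shared title number came from 1 animal. The first of them joins titles T1 and T17, as the replicate block does. With a replicate block the calls were 621 over all libraries, 822 without T_CG 1 and 397 for tumor against blood. In the block fits the log2 fold change was -0.11 for Ptgs2, 0.10 for Nos2 and -0.40 for Tmem176a, and -0.47 for Tmem176a without T_CG 1. With the 3 pairs that share a title number it was 1.42 for Nos2 and -0.46 for Tmem176a with the block, and 2.41 for Nos2 without it.

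The changes of direction fell on 5 genes that were not called. Nos2 was at 0.09 with 16 tumor libraries, 0.02 in limma on log2(RPKM + 1), 0.34 in limma-voom and -0.68 to 2.11 when each library was left out (-0.52 to 2.41 when T_CG 1 was left out as well). Tmem176a was at -0.84 and -0.69 in limma on RPKM with a pseudocount of 0.1 and 1, -0.44 in limma-voom (-0.67 without T_CG 1), and -0.84 to 0.52 when each library was left out (-1.33 to 0.75 when T_CG 1 was left out as well). Ptgs2 was at -0.46 in both RPKM fits and -0.68 to 1.1 when each library was left out (-0.62 to 1.53 when T_CG 1 was left out as well), the lowest values of both genes being those without T_CG 2, Il10 at -0.04 and -0.06 in the RPKM fits with a pseudocount of 0.1 and 1, and Cd80 at -0.03 in both.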
